A study of Homo sapiens with 3 samples.

Results

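The zinc finger genes described here are those whose symbol consists of ZNF or ZSCAN with a number and at most 1 closing letter, or of ZKSCAN with 1 digit. A called cluster belonged to such a gene when that symbol stood first in its exon or intron label. Of 40843 clusters called in 3 replicates, 707 lay in zinc finger genes, and 228 of the 9109 genes with a cluster were zinc finger genes. By prefix these were 214 ZNF genes with 662 clusters, 10 ZSCAN genes with 30 clusters and 4 ZKSCAN genes with 15 clusters. The choice used the names only and none of the measured values.

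Zinc finger genes of this kind form one of the largest families of transcription factors in the human genome. Their proteins carry arrays of C2H2 fingers, in which each finger folds around a zinc ion and contacts a few bases of DNA, and many also carry a KRAB domain, which recruits the corepressor TRIM28 and with it the machinery of heterochromatin, or a SCAN domain, through which family members form dimers. Many of these genes stand in tandem arrays on chromosome 19, arose by duplication and resemble their neighbours in sequence, to a degree not measured here. Reads could therefore have been assigned to the wrong copy, and positions in such genes are uncertain in that respect. The name is also wider than the function, since ZNF330 encodes a nucleolar cysteine-rich protein and ZNF259 (now ZPR1) a zinc-binding partner of translation elongation factor 1A, neither of which is a KRAB repressor. The naming also took in ZNF204P and the older symbols ZNF271 (now ZNF271P), ZNF767 (now ZNF767P) and ZNF720 (now KRABD5).

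The data were 3 replicates of 1 condition. The titles name the human embryonic kidney line HEK293T and the cell line label gives HEK293XT, the lenti-X form of it sold for making lentivirus, with the genotype WT. These cells expressed a fusion of the RNA-binding protein RBFOX2 with the cytidine deaminase APOBEC1 after induction with doxycycline, for 72 h. The fusion deaminates C bases of RNA near the places where it binds, and these C-to-U changes were read in sequenced RNA and grouped into clusters, an approach known as STAMP. The labels name a transient transfection while the growth protocol speaks of stable lines, and no library without the fusion was analysed here, so editing directed by RBFOX2 cannot be told apart from editing by the deaminase alone. Clusters give edited positions and not the level of a transcript, so the cell line could not be checked against marker genes.

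For each cluster, the edit fraction divides edited bases by covered C bases, both summed over reads, and the mean read depth is the average number of reads over its bases. Replicates 1, 2 and 3 held 14295, 15181 and 11367 clusters in all, with 1637592, 1731304 and 1104249 reads in them. Labels for more than 1 gene were given to 3, 6 and 3 of the zinc finger clusters, and these were kept under the first symbol.

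Zinc finger genes held a small and similar share of the clusters in each replicate. Replicate 1 had 235 zinc finger clusters in 126 genes, replicate 2 had 288 in 159 genes and replicate 3 had 184 in 109 genes, a mean of 236 ± 52.0 clusters (SD, n = 3). These were 1.64%, 1.90% and 1.62% of all clusters, with Wilson 95% intervals of 1.45% to 1.87%, 1.69% to 2.13% and 1.40% to 1.87% that overlap between replicates. Their share of the reads in clusters was lower, at 0.443%, 0.401% and 0.409%, and their share of the edited bases lay between, at 0.847%, 1.00% and 0.861%. The intervals here cover counting error of clusters only and take clusters of the same gene as independent. Reads from PCR are not independent molecules either. Of the 537 protein-coding symbols in a RefSeq gene table that follow the same naming, 41.5% had a cluster in at least 1 replicate, beside 38.2% of all protein-coding symbols. A gene clustered under an older symbol and not matched to its current one would count here as without a cluster, which lowers a share.

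Clusters in zinc finger genes were shallower than those in other genes. Their median depth was 12.7, 11.6 and 9.83 reads in replicates 1, 2 and 3, beside 25.5, 25.2 and 21.4 reads for clusters of other genes. The ranges of the replicates do not overlap, and the difference of -12.6 ± 1.01 reads (SD, n = 3) had the same sign in 3 of 3 replicates. An exact two-sided sign-flip permutation test over the replicates gave p = 0.25, which is the smallest value that 3 replicates allow. Depths under 20 were found for 69.4%, 78.1% and 76.6% of zinc finger clusters and for 40.8%, 41.5% and 47.6% of the others. At the deep end, 11.1%, 5.90% and 6.52% of zinc finger clusters had a depth of at least 50, against 29.4%, 28.4% and 24.9% of the others. In bulk RNA, less of a transcript in each cell and fewer cells with it cannot be told apart, and the part of transcript level in these depths was not tested.

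The same clusters had higher edit fractions. The median edit fraction was 2.53%, 2.99% and 3.08% in zinc finger genes and 1.62%, 1.64% and 1.79% in other genes. Every replicate was higher in zinc finger genes, by 1.18 ± 0.239 percentage points (SD, n = 3; exact two-sided sign-flip permutation test p = 0.25, adjusted p = 0.3 over the 12 measures compared in this way). Over all zinc finger clusters of a replicate taken as one, edited bases made up 1.74%, 2.36% and 2.13% of covered C bases, beside 0.935%, 0.929% and 0.992% in other genes. Single clusters ranged from 0.354% to 22.4%.

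**Figure D1:**
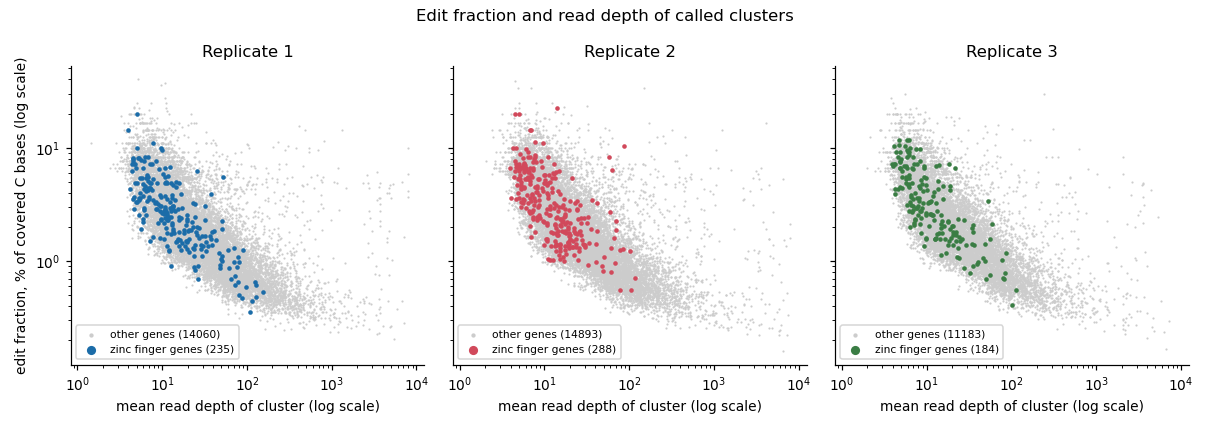
Edit fraction (percent of covered C bases, log scale) against mean read depth (log scale) for each called cluster, with 1 panel per replicate, zinc finger genes in colour and other genes in grey. The zinc finger clusters lie inside the cloud of the other clusters and toward its shallow end, with medians of 12.7, 11.6 and 9.83 reads, and none is deeper than 155 reads.

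Within classes of like depth the difference in edit fraction was smaller and of mixed sign. Under a depth of 10, where 303 of the 707 zinc finger clusters lay, the median was 4.82% ± 0.458 in zinc finger genes and 5.05% ± 0.118 in other genes (SD, n = 3). Between 10 and 20 it was 2.37% ± 0.201 beside 2.32% ± 0.0857 over 226 zinc finger clusters. The next class, 20 to 30, gave 1.67% ± 0.0742 beside 1.65% ± 0.0419 over 79 clusters. In these 3 classes zinc finger genes were higher in 1, 2 and 1 of the 3 replicates, so no direction was shared by all replicates. The 28 clusters at 30 to 40 were higher in 3 of 3 replicates, by 0.176 ± 0.147 percentage points, and the 16 clusters at 40 to 50 were lower in 3 of 3, by -0.117 ± 0.101. At depths of at least 50, the 55 zinc finger clusters had medians of 0.802%, 1.27% and 0.771%. Other genes had 0.774%, 0.792% and 0.783% there, and only replicate 2 was far from its counterpart. Among the 17 zinc finger clusters of replicate 2 were 3 of ZSCAN16, at 8.33%, 6.36% and 2.70%, and 1 of ZNF511, at 10.3%. The 6 ZSCAN16 clusters of this class had few covered C bases for their depth, as given below. Averaged over the 6 classes, each weighted alike, the difference was 0.0107 ± 0.116 percentage points (exact two-sided sign-flip permutation test p = 1).

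**Figure D2:**
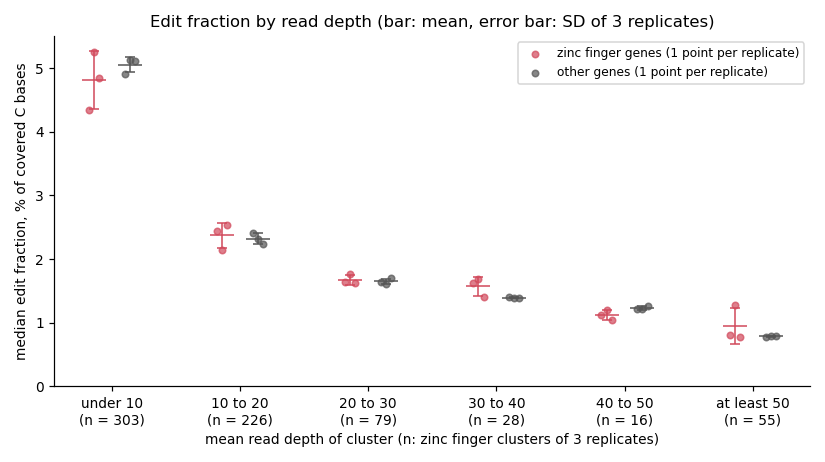
Median edit fraction (percent of covered C bases) by class of mean read depth, with 1 point per replicate, horizontal bars for the mean and error bars for the SD of 3 replicates. In both sets of genes the median falls from about 5% under a depth of 10 to under 1.3% at 50 and above, and zinc finger genes (red) and other genes (grey) overlap in most classes.

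Zinc finger clusters often rested on 1 edited read. Such clusters made up 40%, 46.9% and 50% of the zinc finger set and 27.8%, 30.7% and 32.8% of the others, a difference of 15.2 ± 2.64 percentage points that was positive in 3 of 3 replicates (exact two-sided sign-flip permutation test p = 0.25). Within depth classes the sign was mixed. The mean share was 61.4% beside 55.2% in other genes under a depth of 10, 37.9% beside 39.9% at 10 to 20, 39.6% beside 30.4% at 20 to 30, 19.4% beside 23.5% at 30 to 40, 13.9% beside 19.7% at 40 to 50 and 20.8% beside 9.56% from 50 upward. In all there were 321 of them, and in 138 (43.0%) the single read carried at least 3 edited bases. Edited bases per edited read were 2.08, 2.30 and 2.28 in zinc finger genes beside 1.99, 2.04 and 2.09 in other genes. As many as 9 edited bases in a single edited read were counted in 6 clusters, 1 each in ZNF143, a factor of small nuclear RNA promoters, ZNF217, an oncogene amplified in breast cancer, ZNF711, ZNF177, ZNF33B and ZNF271, all chosen after their values were seen. The edited positions of single reads were not used here. The content of C bases differed little, with medians of 0.2, 0.188 and 0.2 C bases per base in zinc finger clusters and 0.178, 0.187 and 0.2 in the others. That difference, 0.00778 ± 0.0125, was positive in 2 of 3 replicates and smaller than its spread (exact permutation p = 0.5).

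The highest edit fraction stood in ZNF721, on chromosome 4 from base 434303 to 434392 in hg19 coordinates, where 13 of 58 covered C bases were edited in replicate 2 (22.4%). Those 13 bases came from 2 of 16 reads at a depth of 14.1. The next value, 20%, was shared by clusters in ZNF461, ZNF516 and ZNF720, and each of these was 1 edited base of 5 covered C bases. These genes were also chosen after their values were seen.

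A small number of zinc finger genes carried many clusters. Of the 228 genes, 91 (39.9%) had 1 cluster, beside 26.8% of other genes. At least 9 clusters over the 3 replicates were found for 15 of 228 zinc finger genes and for 1290 of 8881 other genes. These 15 zinc finger genes held 183 of the 707 clusters, or 25.9%. Leading them was ZNF207, whose protein BuGZ loads the checkpoint protein BUB3 onto kinetochores, with 7, 5 and 6 clusters. ZNF281, a regulator of stem cell and epithelial-mesenchymal programmes, had 2, 8 and 6 clusters, ZNF664 had 6, 5 and 4, and ZNF121 had 4, 6 and 4. Counts of 6, 4 and 4 were found for ZNF24, a SCAN domain repressor, 5, 3 and 5 for the KRAB gene ZNF317, and 5, 4 and 4 for ZNF330. ZNF267, ZNF638 and ZNF689 tied at 11 clusters. In ZNF638, which takes part in silencing of unintegrated retroviral DNA, they came as 7 in replicate 1, 4 in replicate 2 and none in replicate 3.

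**Figure D3:**
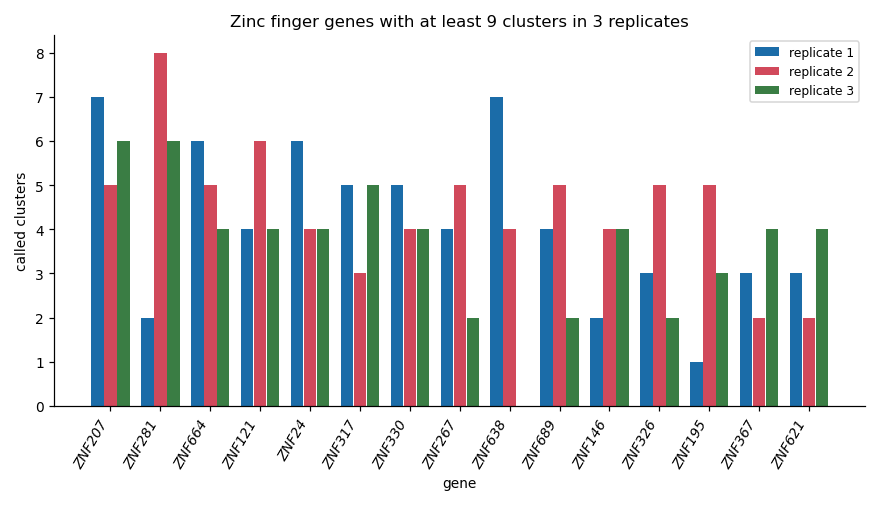
Number of called clusters (y axis) in the 15 zinc finger genes with at least 9 clusters in all, with 1 bar per replicate. Counts of 1 gene differ between replicates, from 2 to 8 in ZNF281 and from 0 to 7 in ZNF638, while ZNF207, with 7, 5 and 6, and ZNF664, with 6, 5 and 4, vary less. Clusters whose label lists ZNF207 after another gene are left out.

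The edit fraction taken over all clusters of a gene differed between these genes. Pooled values of ZNF664 were 0.995%, 0.968% and 0.808% (0.924% ± 0.101, SD, n = 3), a narrow spread. ZNF207 gave 0.532%, 0.828% and 1.25%, and ZNF330 gave 1.38%, 1.20% and 1.83%. Higher values were found for ZNF267, at 4.27%, 3.63% and 7.89%, and for ZNF367, at 5.94%, 5.07% and 5.80% (5.61% ± 0.467). ZNF664 and ZNF367 do not overlap over the replicates, and their clusters differ in depth as well, as none of those in ZNF367 was deeper than 14.7 reads while 12 of the 15 in ZNF664 had a depth of at least 50. ZNF121 spread widest among the 7 genes with the most clusters, with 0.759%, 2.82% and 3.94%, and the clusters of replicate 1, which lay at depths of 23.9 to 78.7, were also its deepest.

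Most zinc finger genes with several clusters carried them within 1 exon. Of 135 zinc finger genes with at least 2 exonic clusters, 91 had all of them under 1 exon label. This count was not set beside that of other genes, which have more clusters per gene. All 16 clusters of ZNF281 and all 15 of ZNF664 stood in 1 exon each, and so did all 13 of ZNF317. Long last exons that encode the whole finger array and the 3′ UTR are usual in this family. ZNF638 and ZNF326, a subunit of a complex that couples splicing to transcription, were different, with 9 exon labels each for 11 and 10 clusters. Exon labels are numbered by position along the chromosome in every one of the 3530 genes with at least 2 labels, so on the minus strand the label 0 is the exon nearest the 3′ end among those labelled. It held 77.9%, 61.4% and 69.9% of the exonic clusters of minus-strand zinc finger genes and 63.2%, 58.6% and 60.1% of those of other genes. The difference of 9.10 ± 5.98 percentage points was positive in 3 of 3 replicates (exact two-sided sign-flip permutation test p = 0.25). Coding sequence and UTR were not told apart here.

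Introns held few of the clusters. They accounted for 5, 3 and 4 zinc finger clusters, or 2.13%, 1.04% and 2.17%, beside 2.18%, 2.36% and 1.72% for other genes. The 12 intronic clusters lay in 7 genes, of which ZNF121 had them in replicates 2 and 3 and ZNF621 and ZNF800 in replicates 1 and 3. The intronic clusters of ZNF121, at 2.11% in replicate 2 and 4.76% in replicate 3, did not overlap each other.

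Clusters in zinc finger genes seldom recurred. Those that overlapped, on the same strand and by at least 1 base, a cluster in both other replicates made up 2.13%, 1.74% and 2.17% of the zinc finger clusters and 10.7%, 10.0% and 13.3% of the others. The difference was -9.33 ± 1.56 percentage points (SD, n = 3) and was not tested, because each replicate's share uses all 3. It rests on 5, 5 and 4 zinc finger clusters. When recurrence was asked only of the remaining pair, the difference was -9.33 percentage points without replicate 1, -12.8 without replicate 2 and -14.2 without replicate 3. Where a match had to cover 50% or more of each of the clusters matched, it was -4.95 percentage points. Merged over replicates, the zinc finger clusters formed 642 loci, of which 585 (91.1%) were found in 1 replicate, 51 in 2 and 6 (0.935%) in 3, while 83.2% of other loci were found in 1 and 4.85% in 3.

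Recurrence differed in the deeper classes as well. Under a depth of 10 it was 1.41% in zinc finger genes and 1.47% in other genes, and both were near 0. Between 10 and 20 it was 1.16% beside 3.70%, and between 20 and 30 it was 1.04% beside 7.01%. None of the 28 and 16 zinc finger clusters at 30 to 40 and 40 to 50 recurred in all 3, where the shares of other genes were 11.04% and 14.4%. At depths of at least 50, shares of 7.69%, 17.6% and 16.7% in zinc finger genes stood below 25.7%, 23.8% and 30.7% in other genes. These last shares rest on 7 clusters, and other genes in the class reach far greater depths than the 155 reads that bound the zinc finger clusters, so the classes do not equalise depth at that end. With each class weighted alike, the mean difference within classes was -7.80 ± 2.56 percentage points. The class under a depth of 10, where the shares were near equal, held 303 zinc finger clusters, and that at 40 to 50 held 16.

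**Figure D4:**
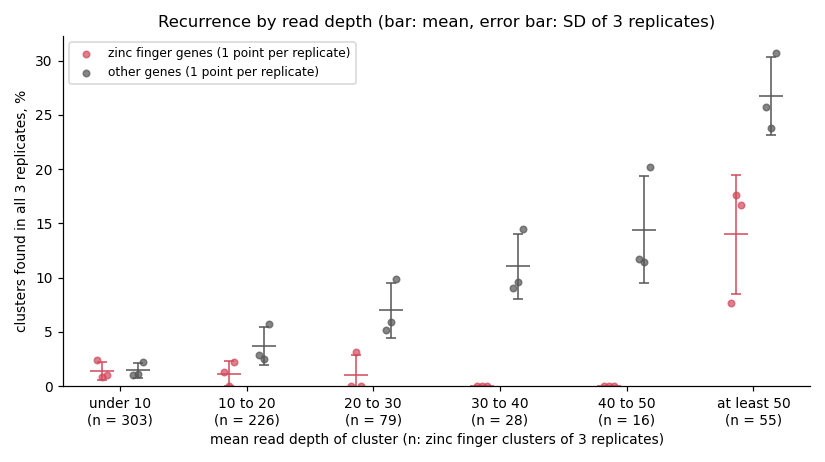
Share of clusters found in all 3 replicates (percent) by class of mean read depth, with 1 point per replicate, horizontal bars for the mean and error bars for the SD of 3 replicates. Other genes (grey) rise from 1.47% under a depth of 10 to 26.7% at 50 and above, while zinc finger genes (red) stay under 4% in every class below 50 and reach 14.0% ± 5.49 in the last.

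Recurrence was higher when counted by gene than by position, which is partly built in, since a locus in all 3 replicates places its gene there too. Clusters were found in 1 replicate for 110 zinc finger genes (48.2%), in 2 for 70 (30.7%) and in 3 for 48 (21.1%), whereas 38.7% of the 8881 other genes had clusters in all 3. Zinc finger genes also had fewer clusters, at a median of 2 per gene beside 3 per other gene. Among genes with 3 clusters in all, 3 of 32 zinc finger genes (9.38%) and 27.3% of other genes had clusters in all 3 replicates. With 4 clusters these shares were 36.8% of 19 genes and 51.5%, with 5 they were 58.3% of 12 genes and 66.7%, and with 6 they were 10 of 10 genes and 79.2%, so the order was not the same at every count. Of the 48 genes in all 3 replicates, 42 had an exon whose clusters came from all 3, 32 had clusters of some pair of replicates that overlapped, and 6 had a locus common to all 3. The clusters of these 48 genes were deeper than those of the remaining zinc finger genes, at a median of 14.99 beside 8.57 reads.

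The 6 loci found in all 3 replicates lay in ZNF330, ZNF664, ZNF207, ZNF211, ZNF222 and ZNF24, all in exons. Positions are in hg19 and span all clusters of a locus, which were joined where they overlapped, so in ZNF207 the clusters of replicates 1 and 3, and in ZNF211 those of replicates 2 and 3, met only through the remaining replicate. The locus in ZNF330, chr4:142155035-142155304 on the plus strand, had 6 edited of 110 reads in replicate 1, 17 of 247 in replicate 2, where it was called as a pair of clusters, and 12 of 168 in replicate 3. Its edit fractions were 1.29%, 1.26% and 2.14% (1.56% ± 0.499, SD, n = 3). It also held the longest zinc finger cluster, of 210 bases with 39 edited bases in replicate 3. The locus in ZNF664, chr12:124499529-124499633 on the plus strand, had 9 edited of 305 reads, 9 of 170 and 3 of 99. Its edit fractions were 0.706%, 1.22% and 0.699% (0.874% ± 0.297). In replicate 1 it was called as a pair of clusters, with 5 of 189 and 4 of 116 reads. Reads of such pairs were summed, here and in ZNF330, so any read that reached both clusters was counted in each. In ZNF207, at chr17:30696799-30696903 on the plus strand, 4 of 153, 8 of 168 and 1 of 95 reads were edited, and the edit fractions were 0.657%, 0.555% and 1.03% (0.747% ± 0.249). These loci are the deep ones, with about 95 reads or more in each replicate, and their mean edit fractions are the lowest of the 6.

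The other 3 loci rested on fewer reads. ZNF24 was called at chr18:32917472-32917576 on the minus strand, with 1 edited of 15 reads, 3 of 56 and 1 of 19 and edit fractions of 2.35%, 1.39% and 3.23% (2.32% ± 0.921, SD, n = 3). In the KRAB gene ZNF211, at chr19:58153978-58154097 on the plus strand, 5 of 33, 2 of 9 and 2 of 10 reads were edited, at 2.55%, 2.02% and 3.28% (2.62% ± 0.632). The KRAB gene ZNF222, at chr19:44536646-44536735 on the plus strand, had 1 of 6, 1 of 19 and 3 of 10 reads edited and edit fractions of 4.35%, 4.93% and 9.23% (6.17% ± 2.67). The ranges of ZNF222 and the 3 deep loci do not overlap, while those of ZNF24 and ZNF211 overlap each other and that of ZNF330.

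**Figure D5:**
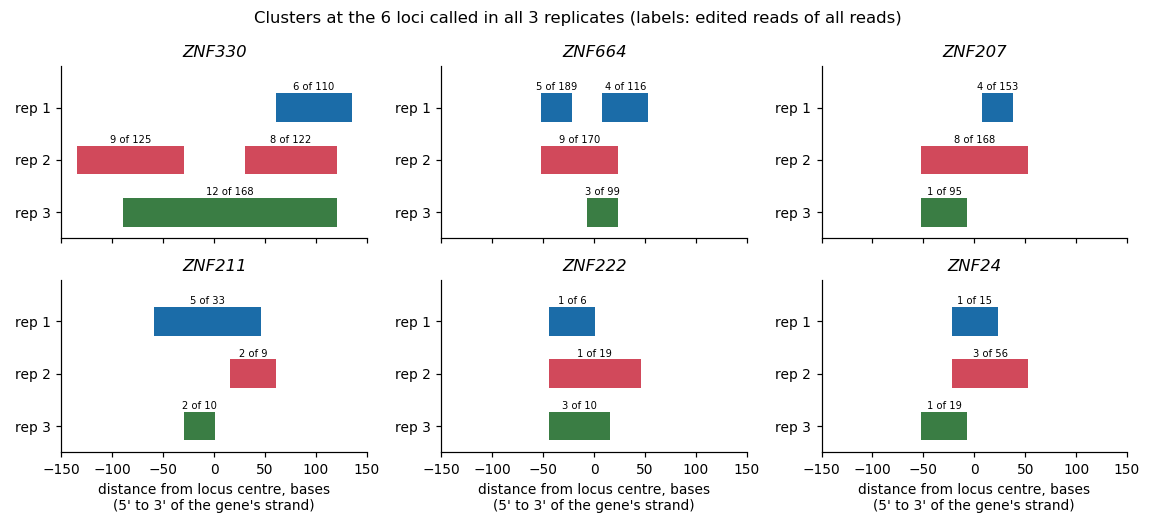
Clusters called at the 6 loci found in all 3 replicates, drawn as bars by distance in bases from the centre of the locus, 5′ to 3′ on the strand of the gene, with 1 line per replicate and the edited reads of all reads above each bar. No locus has the same borders in all 3 replicates, and edited reads number from 1 of 6 in ZNF222 to 12 of 168 in ZNF330.

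No zinc finger locus had the same start and end in all 3 replicates, although 9 had them in 2. Differences between replicates were therefore tested at 174 loci of other genes with identical borders, of which 5 (2.87%) were called by two-sided Fisher's exact tests of edited against unedited reads with Benjamini-Hochberg adjustment, and no zinc finger locus could enter. At the 1586 loci of all genes matched by overlap, 10 (0.631%) were called, and 0 of the 6 zinc finger loci, none of which had an unadjusted p under 0.05 either. The lowest was 0.105, for ZNF222 between replicates 2 and 3 (Fisher's exact test). Borders differ between replicates in the version matched by overlap, so edited reads were counted over unequal stretches. Pairs of clusters in ZNF330 and ZNF664 entered with their reads summed, so any read that reached both was counted in each. With 6 to 33 reads at ZNF211 and ZNF222, large differences were not detectable at this depth. The 9 zinc finger positions with identical borders in a pair of replicates lay in ZNF207, ZNF24, ZNF280B, ZNF326, ZNF367, ZNF398, ZNF687, ZNF703 and ZSCAN16. Tested among all loci that the pair shared, 0 of 4 were called between replicates 1 and 2 (0.174% of all 575 loci), 0 of 4 between replicates 1 and 3 (0.457% of 438) and 0 of 1 between replicates 2 and 3 (0.594% of 505), and none had an unadjusted p under 0.05 by Fisher's exact test. The lowest was 0.0742, for ZNF326, where 1 of 30 reads in replicate 2 and 5 of 23 in replicate 3 were edited.

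Depths of at least 50 were reached by 55 zinc finger clusters in 13 genes. ZNF207 and ZNF664 held 12 each, ZNF330 held 7 and the SCAN domain gene ZSCAN16 held 6, with few covered C bases for their depth. ZNF146 and ZNF703, a transcriptional cofactor gene amplified in luminal breast cancer, held 4 each. The deepest was a cluster of 60 bases in ZNF703 that had 8 edited of 205 reads at a depth of 155 in replicate 1 and was called with the same borders in replicate 3, with 6 of 131 reads at a depth of 113. Its edit fractions, 0.538% and 0.560%, were close, and replicate 2 had no cluster in ZNF703. ZNF146, whose protein consists almost wholly of zinc fingers, had its longest cluster in replicate 1, at chr19:36728902-36729096, where 8 of 220 reads carried 26 edited bases (edit fraction 1.10%). A cluster of 180 bases in ZNF664, at chr12:124498914-124499093 in replicate 3, had 14 edited bases in 4 of 177 reads.

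Zinc finger clusters were concentrated on chromosome 19. It held 53 of 235, 92 of 288 and 53 of 184 zinc finger clusters in replicates 1, 2 and 3, which is 22.6%, 31.9% and 28.8% (27.8% ± 4.78, SD, n = 3), against 2.90%, 3.24% and 3.33% of all clusters. In turn, zinc finger genes made up 12.8%, 18.7% and 14.0% of all clusters on that chromosome. These 198 clusters lay in 78 of the 228 zinc finger genes with a cluster, and the 509 on other chromosomes lay in 150. The share of all clusters is thus no measure of editing per zinc finger gene. Chromosome 7 followed with 55 clusters in 22 genes, and chromosome 1 with 51 in 13.

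Within the family, clusters on chromosome 19 were the shallower ones. Their median depth was 11.01, 8.52 and 7.93 reads beside 13.0, 13.5 and 10.8 for zinc finger genes elsewhere, a difference of -3.29 ± 1.56 reads (SD, n = 3). Median edit fractions were 3.03%, 3.43% and 3.51% on chromosome 19 and 2.37%, 2.78% and 2.75% elsewhere. Both differences had 1 sign in 3 of 3 replicates, at 0.693 ± 0.0618 percentage points for the edit fraction (exact two-sided sign-flip permutation test p = 0.25 for each). Only 11 of the 78 genes on chromosome 19 had clusters in all 3 replicates, and ZNF211 and ZNF222 were the genes there with a locus in all 3.

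SCAN domain genes with the ZSCAN and ZKSCAN prefixes were few. ZSCAN clusters numbered 12, 12 and 6, with median edit fractions of 4.07%, 4.94% and 2.99%. ZKSCAN clusters numbered 6, 4 and 5, with a mean of the medians of 3.79% ± 1.42, beside 2.77% ± 0.290 for the ZNF prefix (SD, n = 3). Each replicate holds 4 to 12 such clusters of a prefix. Clusters in all 3 replicates were found for ZSCAN12, ZSCAN16, ZSCAN29, ZKSCAN1 and ZKSCAN8, and no position in them recurred in all 3. ZSCAN16 had the greatest mean read depth, with pooled edit fractions of 1.21%, 5.59% and 3.41% at median depths of 56.7, 60.04 and 53.1. Summed over its clusters, edited reads were 3 of 118, 8 of 199 and 1 of 58, so few edited reads stood behind each value. Its covered C bases were few for that depth. In replicate 2, its cluster of 150 bases had 236 covered C bases over 20 C bases at a depth of 63.0. For comparison, a ZNF330 cluster of replicate 3 had 1822 over 31 at a depth of 59.4. The cause was not tested. ZKSCAN1, the host gene of an abundant circular RNA, had 2.51%, 2.08% and 5.66%, and ZKSCAN8 had 1.06%, 5.15% and 3.53%. ZSCAN12 gave 6.04%, 4.44% and 8.33% and ZSCAN29 gave 3.17%, 4.88% and 2.15%, at median depths under 14 reads in each replicate.

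C2H2 genes under other names, such as ZBTB, PRDM, KLF and SP genes, lay in a similar range, without a test of the difference. They had 69, 97 and 49 clusters in 61 genes, with median depths of 10.96, 13.1 and 9.09 reads and median edit fractions of 3.17%, 2.31% and 3.03%. Recurrence in all 3 replicates was 4.35%, 2.06% and 4.08%. Of 19 listed partners of KRAB zinc finger proteins, which include TRIM28, the histone methyltransferase SETDB1, the heterochromatin proteins and the HUSH complex, 18 had clusters and 11 had them in all 3 replicates. Their clusters were deeper, at 42.1, 31.2 and 27.6 reads, had lower edit fractions of 1.06%, 1.75% and 1.39%, and recurred in 20.4%, 11.1% and 17.5% of cases, again without a test. TRIM28 itself had 1 cluster, in replicate 2, and SETDB1 had 1, 3 and 0, while HDAC2, a deacetylase of the repressor complexes, had 21 in all and FAM208A, a HUSH subunit, had 19.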

How the data were processed

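Editing clusters of 3 replicates of 1 condition were analysed, grouped by the labels' titles. Per the study's methods, SAILOR found C-to-U edits and discarded common SNPs, and FLARE called clusters (windows of 30 bases, background rates by exon, intron and read depth class, adjusted p threshold 0.1, merging within 15 bases), replicate by replicate. The submitters' processing notes name STAR and hg19. The deposited counts, of bases and of reads per cluster, are unscaled. The edit fraction and the fraction of edited reads were deposited by the authors as ratios of these counts, and the edit fraction was recomputed from them in all 40843 clusters. Mean read depth was deposited as coverage over the cluster, without scaling for library size. The deposited score is a cumulative negative binomial probability. Only clusters past the threshold were analysed, so reads in clusters are not library depth, and depth limits the precision of each edit fraction. The paper also states that noise can inflate edit fractions at low read depth, and FLARE asks for a stronger signal there. The part of this selection in the differences given here was not tested.

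Starts were taken as counted from 0 and are printed counted from 1. SciPy 1.17.1, pandas 2.3.3 and NumPy 2.4.6 under Python 3.11.15 (plots with matplotlib 3.10.9) gave medians per replicate, exact sign-flip permutation tests of 3 differences, Fisher's exact tests with a threshold of 0.05 over all loci, and Wilson 95% intervals. The sign-flip p-values measure the spread between these samples only. Those of Fisher's exact tests measure counting error of reads, with each read taken as independent. The code was tested on simulated data. Loci in all 3 replicates, genes with the most or longest clusters, SCAN domain genes in all 3 replicates and genes with introns edited in 2 replicates were named, and others were chosen after their values were seen. Members, lists and tests were chosen with earlier results of these data known. Of 228 symbols, 224 are current in RefSeq (GRCh38.p14) and 4 are older symbols. RefSeq was used for names and for the shares of protein-coding symbols with a cluster. Alternatives were minimum scores, depths and edited reads, other overlaps and summaries, clusters with 1 gene label, added C2H2 genes and leaving out each replicate. Matching loci by overlap, or by borders identical in a pair of replicates, for the Fisher tests and deep clusters set against all clusters were added after seeing the data. Numbers of fingers per protein and sequences of clusters were not analysed here.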

Additional observations from a re-analysis of the deposited data

Results flagged for a closer look

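Clusters whose label lists a zinc finger gene after another gene were outside the comparisons. They numbered 21, 25 and 26 in replicates 1, 2 and 3, a mean of 24 per replicate, and include ZNF23 (2, 2 and 3 clusters) and ZNF410 (2, 2 and 2). ZNF207 was the second gene beside RP11-227G15.3 (0, 2 and 2) and MIR632 (0, 1 and 1), and its counts of 7, 5 and 6 leave these out. No library without the fusion was at hand to set such clusters against. In groups of 3 replicates no sample was tested for standing apart.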

How the results depend on the processing

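No sign turned under the alternatives run for the means over replicates, but 3 replicates cannot pass the sign-flip test, so the sizes below and not the test show what moved. The number of zinc finger clusters per replicate fell from 236 to 157 at scores of at least 0.99, 135 at depths of at least 10, 18.3 at depths of at least 50 and 129 with at least 2 edited reads, and their share of all clusters went from 1.72% to 1.89%, 1.20%, 0.485% and 1.35% in that order, or to 2.24% with other C2H2 genes added. Leaving out a replicate gave 209.5 to 261.5 clusters, shares of 1.63% to 1.77%, and 25.7% to 30.4% on chromosome 19. The difference in recurrence, -9.33 percentage points, was -4.95 with 50% overlap, -11.5 at depths of at least 10, -12.1 with at least 2 edited reads and -12.7 at depths of at least 50 (added after seeing the data), and ranged from -9.33 to -14.2 without a replicate. The difference in median edit fraction, 1.18 percentage points, was 0.413 at depths of at least 10, 0.165 at depths of at least 50, 0.763 with at least 2 edited reads and 0.0107 within depth classes, and from 1.10 to 1.32 without a replicate; the cause was not tested. The difference in depth was -55.7 reads with means in place of medians. Fractions of edited reads in place of edit fractions moved all 6 recurrent loci, to 2.81% to 19.1%. No zinc finger locus entered the Fisher's exact tests at borders identical in all 3 replicates. With borders identical in the remaining pair (added after seeing the data), 1, 4 and 4 entered without replicates 1, 2 and 3, and 0 were called. The 321 clusters with 1 edited read, of any depth, each rest on that read. No paired analysis was possible because the labels give 1 condition and no groups of samples to pair; the differences above are between gene sets within each replicate.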

Other observations

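Symbols that resemble the family but fall outside its naming rule also had clusters, namely ZNF192P1, ZNF503-AS2, ZNF674-AS1, ZNFX1 and ZSCAN16-AS1. Among C2H2 genes with other names, PRDM4 had 11 clusters over the 3 replicates, VEZF1 and ZBTB2 had 10 each and SP1 had 9, and 16 of the 61 genes had clusters in all 3. These genes were chosen after their values were seen.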
